A study of Mus musculus with 4 samples.

Results

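The genes described here are 10 members of the route from blood sugar to lactate: the glucose transporters Slc2a1 and Slc2a3 and the enzymes Hk2, Pfkp, Aldoa, Tpi1, Gapdh, Pgk1, Eno1 and Ldha. They were chosen by symbol, as 10 of the 23235 gene symbols in the deposited expression table, and 10 of the 10 were at or above 1 FPKM (fragments per kilobase of transcript, scaled to sequencing depth, and so a level per transcript length) in all 4 libraries. RNA depleted of ribosomal RNA was sequenced from 4 mouse cultures, with 1 library per group. WT_ES were wild-type embryonic stem (ES) cells of the J1 background, strain 129S4/SvJae, and DKO_ES were ES cells carrying knockouts of both Dnmt3a and Dnmt3b, whose enzymes place new methyl groups on DNA. Both lines were kept in knockout DMEM with serum and leukemia inhibitory factor, were moved from irradiated feeder cells to gelatin before use, and were harvested on day 0. WT_NP and DKO_NP were labelled as neural progenitor cells (NPCs) and were derived from the respective lines. They spent 4 days as embryoid bodies, floating aggregates of differentiating cells, and a further 2 days with retinoic acid, and were harvested on day 6. The labels do not say whether the knockout line is a single clone, and they name no second culture of any group, so every difference below lacks a replicate check.

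Glucose enters cells through the SLC2A (GLUT) carriers and is trapped inside by hexokinase, which adds a phosphate. Phosphofructokinase commits the sugar to glycolysis, aldolase splits it, and the enzymes from triosephosphate isomerase to enolase convert the products towards pyruvate while making ATP and NADH. Lactate dehydrogenase turns pyruvate to lactate and gives back the NAD+ that glyceraldehyde-3-phosphate dehydrogenase needs. Pluripotent stem cells are known for a high rate of glycolysis, and several of these genes are known targets of the hypoxia-inducible factors and of Myc proteins.

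The members were among the most abundant messages of each culture, with the exceptions of Hk2 and Pfkp. Summed over the 10 genes, the deposited FPKM made up 1.19% of the FPKM of protein-coding genes of at least 1 kb in WT_ES and 0.978% in DKO_ES, against 1.30% in WT_NP and 0.979% in DKO_NP. Among the 17421 such coding genes, the aldolase gene Aldoa ranked 57 in WT_ES and 74 in DKO_ES, against 60 in WT_NP and 82 in DKO_NP, the highest place of any member in each library. Pfkp ranked 1058, 928, 3238 and 5368 in the same order, the lowest place of any member in each library. Of the 10 genes, 4 (Slc2a3, Hk2, Tpi1 and Gapdh) lie on chromosome 6, 2 (Slc2a1 and Eno1) on chromosome 4, 2 (Aldoa and Ldha) on chromosome 7, and Pfkp and Pgk1 on chromosomes 13 and X.

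The libraries were not on the same scale as deposited. In the deposited FPKM the median gene lay at a log2 ratio of -0.82 in WT_NP against WT_ES, -0.43 in DKO_NP against DKO_ES, -0.06 in DKO_ES against WT_ES and 0.39 in DKO_NP against WT_NP. Levels below are therefore median-scaled FPKM unless stated: each library was divided by a factor that puts its median gene level with the mean of the 4 libraries, so that higher and lower mean relative to the median gene. Log2 ratios were taken after adding 1 FPKM, and folds without it. Each fold is followed by a 95% Clopper-Pearson interval from approximate reads, which covers counting error only. FPKM divides by a read number, fitted at 13.8 M in WT_ES, 14.9 M in DKO_ES, 36.2 M in WT_NP and 24.7 M in DKO_NP. Approximate reads over coding genes exceeded these numbers, at 35.4, 39.0, 42.3 and 40.1 M in the same order. The fitted numbers therefore cannot be read as sequencing depth. The targeted genes were lower in the knockout libraries. Dnmt3a was 2.72-fold and Dnmt3b 9.56-fold lower in DKO_ES than in WT_ES. They were 5.64-fold and 2.59-fold lower in DKO_NP than in WT_NP.

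**Figure D1:**
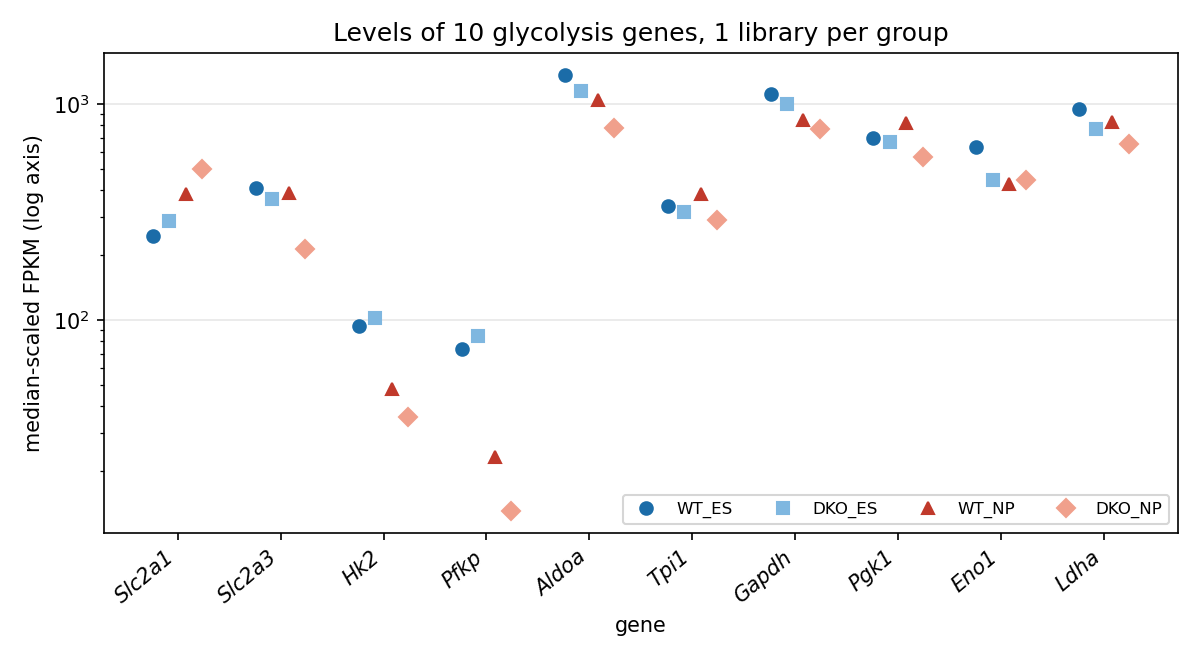
Median-scaled FPKM (log axis) of each of the 10 genes in the 4 libraries, 1 point per library. Aldoa is the highest member in every library, at 774 to 1366, and Pfkp has the widest range, from 84.5 in DKO_ES down to 13.1 in DKO_NP.

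The 2 glucose transporter genes had different patterns over the cultures. Slc2a1, which encodes GLUT1, the carrier of basal glucose uptake in most cells, stood at 245 scaled FPKM in WT_ES and 289 in DKO_ES, against 382 in WT_NP and 499.7 in DKO_NP. Both NPC libraries were above both ES libraries. For this and each such order of libraries below, the share of all genes with the same order was not counted. Slc2a1 was higher in WT_NP than in WT_ES by 1.56-fold (1.53 to 1.59) and 1.73-fold higher in DKO_NP than in DKO_ES (1.70 to 1.76). Without scaling the WT_NP value was the lower, at a log2 ratio of -0.33, while the DKO_NP value stayed the higher, at 0.33. Between genotypes Slc2a1 was 1.18-fold higher in DKO_ES than in WT_ES (1.15 to 1.20) and 1.31-fold higher in DKO_NP than in WT_NP (1.29 to 1.33). Slc2a3, which encodes GLUT3, a carrier of high glucose affinity best known from neurons, stood at 410.2 scaled FPKM in WT_ES and 365 in DKO_ES, against 389 in WT_NP and 212 in DKO_NP. After scaling DKO_NP stood apart from the other libraries: Slc2a3 was 1.83-fold lower there than in WT_NP (1.81 to 1.85) and 1.72-fold lower than in DKO_ES (1.70 to 1.74), against 1.05-fold lower in WT_NP than in WT_ES (1.04 to 1.07), a direction that turned with upper quartile scaling. As deposited both NPC libraries were below both ES libraries, at 261 FPKM in WT_NP and 193 in DKO_NP against 541 in WT_ES and 457 in DKO_ES.

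The balance of these carriers within a library does not depend on any scaling. The ratio of Slc2a1 to Slc2a3 was 0.598 in WT_ES (0.587 to 0.609) and 0.790 in DKO_ES (0.777 to 0.804), against 0.983 in WT_NP (0.970 to 0.996) and 2.35 in DKO_NP (2.32 to 2.39). Slc2a3 was thus the more abundant transporter message in 3 libraries and Slc2a1 in DKO_NP. The other 11 listed sugar carriers were scarce: their summed level ran from 13.5 scaled FPKM in DKO_NP to 18.6 in WT_NP, and Slc2a8, a carrier of intracellular membranes, stood at 11.8, 12.3, 8.82 and 6.69 scaled FPKM in WT_ES, DKO_ES, WT_NP and DKO_NP.

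Hk2 and Pfkp, the genes of early steps at which sugar is phosphorylated, were the members that differed most between ES cells and NPCs. Hk2 encodes hexokinase 2, a hexokinase that binds to mitochondria and is typical of muscle and of fast-growing cells. It stood at 93.5 scaled FPKM in WT_ES and 103 in DKO_ES, against 48.1 in WT_NP and 35.6 in DKO_NP. Both ES libraries were above both NPC libraries, by 1.94-fold in wild type (1.89 to 2.00) and 2.89-fold in the knockout (2.79 to 2.99). Pfkp encodes the platelet form of phosphofructokinase, whose step is the main point of control of the pathway. Its level was 73.3 scaled FPKM in WT_ES and 84.5 in DKO_ES, against 23.3 in WT_NP and 13.1 in DKO_NP. Both ES libraries were again above both NPC libraries. Pfkp was 3.14-fold lower in WT_NP than in WT_ES (3.06 to 3.23) and 6.43-fold lower in DKO_NP than in DKO_ES (6.22 to 6.66).

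Between genotypes both genes were slightly higher in knockout ES cells and lower in knockout NPCs. Hk2 was 1.10-fold higher in DKO_ES than in WT_ES (1.07 to 1.13) and 1.35-fold lower in DKO_NP than in WT_NP (1.30 to 1.40). The latter rests on the scaling, since the deposited values of Hk2 in the NPC libraries, 32.3 FPKM in both, gave a log2 ratio of 0.00. Pfkp was 1.15-fold higher in DKO_ES (1.13 to 1.18) and 1.78-fold lower in DKO_NP (1.71 to 1.85), and was lower in DKO_NP as deposited too, at a log2 ratio of -0.36. Measured against Gapdh within each library, which needs no scaling, Pfkp was at 0.0661 of Gapdh in WT_ES and 0.0841 in DKO_ES, against 0.0278 in WT_NP and 0.0171 in DKO_NP, the same order of libraries as its scaled level. Pfkp shares 748 exon bases with Pitrm1, a mitochondrial peptidase gene on the opposite strand, and no source says whether the libraries kept strand. Pitrm1 differed less than Pfkp, with log2 ratios of -0.30 in WT_NP against WT_ES and -0.45 in DKO_NP against DKO_ES, and its part in the Pfkp values was not tested.

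The isozymes of both steps differed in pattern. At the hexokinase step, Hk2 made up 81.9% of the summed FPKM of Hk1, Hk2 and Hk3 in WT_ES and 80.3% in DKO_ES, against 79.1% in WT_NP and 51.5% in DKO_NP. Hk1, the hexokinase of brain and most other tissues, had a share of 17.0% to 19.7% in the 4 libraries, and its level was 1.96-fold lower in WT_NP than in WT_ES (1.85 to 2.07) and 2.14-fold lower in DKO_NP than in DKO_ES (2.03 to 2.25). The rest in DKO_NP was Hk3, a hexokinase best known from white blood cells. Hk3 stood at 0.208 scaled FPKM in WT_ES and 0.0484 in DKO_ES, against 2.25 in WT_NP and 21.8 in DKO_NP, and its share was 31.5% in DKO_NP against 3.69% in WT_NP and under 0.2% in both ES libraries. Hk3 was 9.70-fold higher in DKO_NP than in WT_NP (8.38 to 11.3).

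At the phosphofructokinase step, Pfkl, the liver form, was nearly level between the cultures after scaling, at 111, 95.7, 109.6 and 89.98 scaled FPKM in WT_ES, DKO_ES, WT_NP and DKO_NP (146, 119.9, 73.5 and 81.7 FPKM as deposited). The share of Pfkp in the sum of Pfkl, Pfkm and Pfkp was 35.5% in WT_ES and 43.3% in DKO_ES, but 15.0% in WT_NP and 11.02% in DKO_NP. The ratio of Pfkp to Pfkl was 0.661 in WT_ES (0.647 to 0.676) and 0.882 in DKO_ES (0.862 to 0.902), against 0.213 in WT_NP (0.207 to 0.218) and 0.146 in DKO_NP (0.141 to 0.151). Pfkl was the more abundant form in all 4 libraries, by the least in DKO_ES and by the most in DKO_NP.

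**Figure D2:**
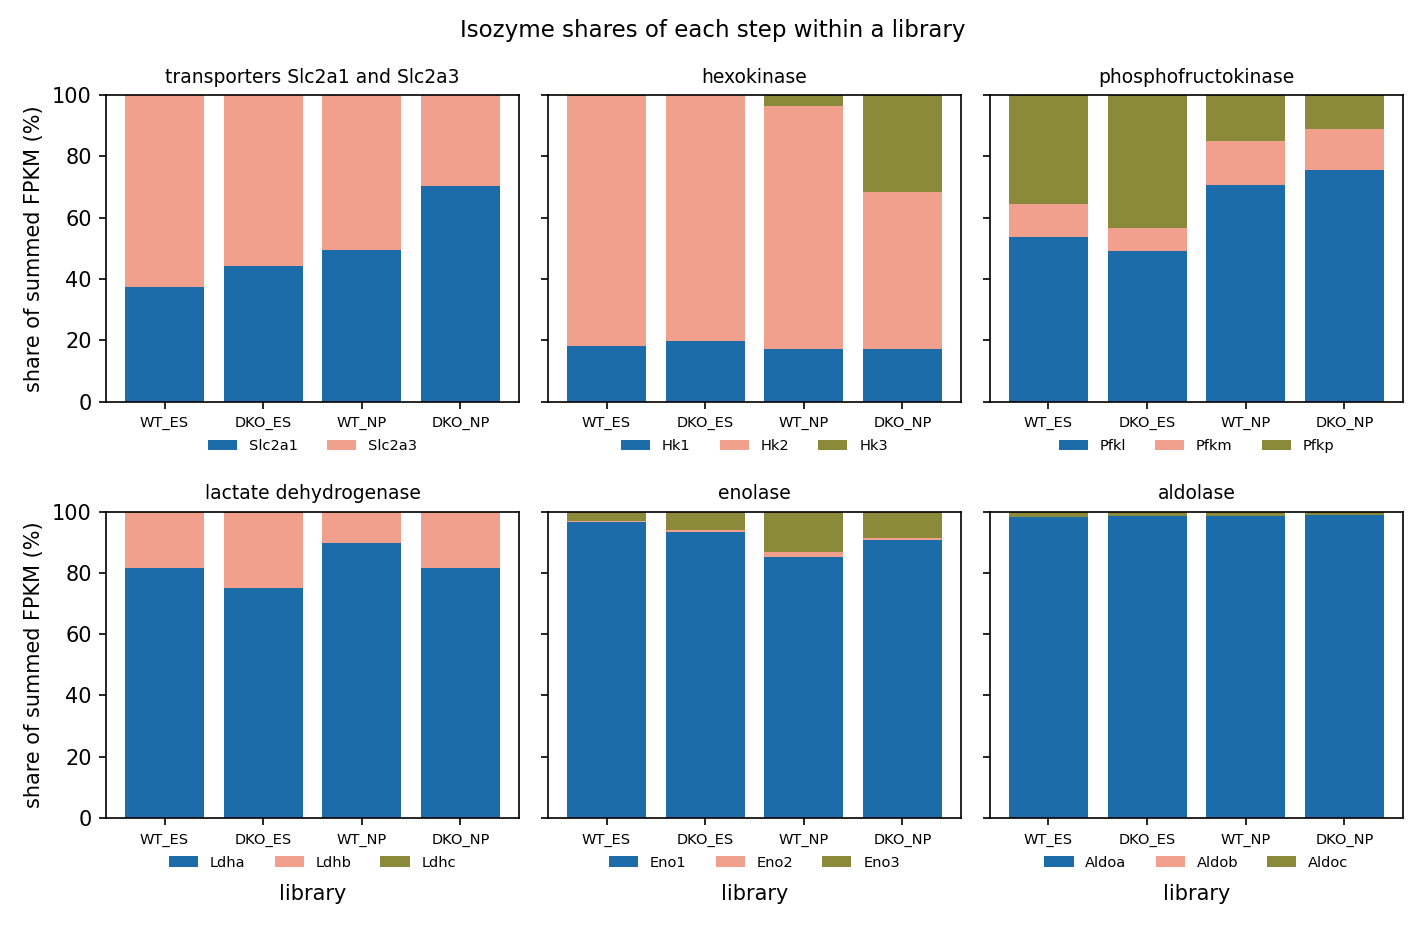
Share of each isozyme (percent) in the summed deposited FPKM of its step, 1 bar per library, for the Slc2a1 and Slc2a3 transporters and 5 enzyme steps. Shares within a library do not depend on scaling. The enolase sum holds Eno1, Eno2 and Eno3 and leaves out the Eno1 retrocopy Gm5506. Slc2a1 runs from 37.4% in WT_ES to 70.2% in DKO_NP, Hk3 reaches 31.5% in DKO_NP, and Pfkp makes up 11.02% to 15.0% in the NPC libraries against 35.5% to 43.3% in the ES libraries.

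Promoter sequences of 300 bases, from 250 before to 50 after an annotated start (RefSeq, build GRCm38.p6, whereas the expression values were made on mm9), were found for 9 of the 10 genes, all but Slc2a3, in 14 windows. The members' windows held a median of 22 CpG dinucleotides, the sites that DNA methyltransferases modify, against a median of 7 over all 32851 windows, with a range from 0 to 30. The letters ACGTG, a form of the core bound by hypoxia-inducible factors, were searched on both strands, as ACGTG or CACGT. They overlap with CACGTG, the E-box bound by Myc proteins. Another form, GCGTG, was not searched, though it occurs in the Pfkp and Ldha windows below, so the counts cover only part of the core. ACGTG was present for 6 of the 9 genes, against 21.8% of all genes with a window. CACGTG was present for 1 of the 9, Ldha, against 8.09% of all genes. The letters GGGCGG, bound by Sp1, were present for 8 of the 9, against 38.2% of all genes. These matches describe letters, and no binding was measured. The windows of 4 members are shown 5′ to 3′ on the gene's strand, with ACGTG matches in capitals. Pfkp and Hk2 are shown because they differed most between the cultures, and Pgk1 and Ldha as members that differed little. The Pfkp window (chr13:6648722-6649021, minus strand) holds 0 matches and 21 CpG. The Hk2 window (chr6:82774405-82774704, minus strand) holds 2 matches and 25 CpG. The Pgk1 window (chrX:106186850-106187149, plus strand) holds 2 matches and 24 CpG, and the Ldha window (chr7:46845554-46845853, plus strand) holds 5 matches, counting both strands, and 30 CpG. Each of the 2 CACGTG sites of Ldha reads the same on both strands and so counts as 2 matches. A second Ldha window, not shown, holds 0 matches and 13 CpG.
Pfkp: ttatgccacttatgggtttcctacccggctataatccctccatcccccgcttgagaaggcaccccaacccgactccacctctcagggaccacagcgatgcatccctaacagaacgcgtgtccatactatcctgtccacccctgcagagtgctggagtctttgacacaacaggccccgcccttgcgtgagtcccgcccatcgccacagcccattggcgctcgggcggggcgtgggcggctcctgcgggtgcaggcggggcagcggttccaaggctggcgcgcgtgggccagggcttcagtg
Hk2: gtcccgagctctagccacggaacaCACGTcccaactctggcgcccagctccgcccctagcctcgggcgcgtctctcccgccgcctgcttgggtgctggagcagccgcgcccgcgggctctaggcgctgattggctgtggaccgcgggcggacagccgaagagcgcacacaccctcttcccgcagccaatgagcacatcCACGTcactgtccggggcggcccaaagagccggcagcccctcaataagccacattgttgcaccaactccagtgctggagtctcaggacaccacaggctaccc
Pgk1: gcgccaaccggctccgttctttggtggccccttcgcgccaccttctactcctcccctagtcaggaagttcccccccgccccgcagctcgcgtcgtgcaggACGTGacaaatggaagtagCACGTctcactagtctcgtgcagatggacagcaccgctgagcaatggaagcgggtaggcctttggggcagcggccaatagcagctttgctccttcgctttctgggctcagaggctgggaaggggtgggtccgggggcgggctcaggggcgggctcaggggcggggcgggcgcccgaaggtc
Ldha: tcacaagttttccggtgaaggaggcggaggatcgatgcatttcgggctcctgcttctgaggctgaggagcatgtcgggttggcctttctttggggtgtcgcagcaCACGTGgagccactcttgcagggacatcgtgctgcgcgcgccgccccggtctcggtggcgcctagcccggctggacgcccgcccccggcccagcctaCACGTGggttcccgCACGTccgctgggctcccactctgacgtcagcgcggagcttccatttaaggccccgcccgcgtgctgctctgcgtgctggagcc

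The enzymes of the middle of the pathway differed less than Hk2 and Pfkp. Aldoa encodes the main aldolase of muscle and early embryo, and stood at 1366 scaled FPKM in WT_ES and 1150.0 in DKO_ES, against 1039.9 in WT_NP and 774 in DKO_NP. Aldoa was lower in NPCs than in ES cells in either genotype, by 1.31-fold in wild type (1.30 to 1.33) and 1.49-fold in the knockout (1.47 to 1.5). It made up 98.2% to 98.9% of the aldolase FPKM in the 4 libraries. Tpi1, triosephosphate isomerase, had the narrowest range of the members, at 337 scaled FPKM in WT_ES and 317 in DKO_ES, against 382 in WT_NP and 291 in DKO_NP. The highest library was 1.31 times the lowest on the scale with 1 FPKM added. The highest was WT_NP after scaling and WT_ES as deposited.

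Gapdh, often used as a reference gene for RNA amount, stood at 1108 scaled FPKM in WT_ES and 1004 in DKO_ES, against 839 in WT_NP and 769 in DKO_NP. Both NPC libraries were below both ES libraries, by 1.32-fold in wild type (1.31 to 1.33) and 1.30-fold in the knockout (1.29 to 1.32), and the genotypes differed by 1.10-fold in ES cells and 1.09-fold in NPCs, the knockout being the lower. As deposited, Gapdh was 1461 FPKM in WT_ES and 1256 in DKO_ES, against 563 in WT_NP and 699 in DKO_NP, so the deposited values put DKO_NP above WT_NP. Pgk1, the X-linked phosphoglycerate kinase that makes the first ATP of the pathway, stood at 693 scaled FPKM in WT_ES and 668 in DKO_ES, against 820.2 in WT_NP and 569.9 in DKO_NP. After scaling WT_NP was its highest and DKO_NP its lowest library, though WT_ES was the highest as deposited, with Pgk1 1.44-fold lower in DKO_NP than in WT_NP (1.42 to 1.46). As deposited the difference was near 0, at a log2 ratio of -0.09.

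After scaling, Eno1 was set apart by WT_ES. It encodes alpha-enolase, the enolase of most growing tissues, and stood at 635 scaled FPKM in WT_ES and 444 in DKO_ES, against 428 in WT_NP and 447 in DKO_NP. The other 3 libraries lay close together, while Eno1 was 1.43-fold lower in DKO_ES than in WT_ES (1.41 to 1.45) and 1.48-fold lower in WT_NP than in WT_ES (1.47 to 1.5). Between the knockout libraries it differed by 1.01-fold (0.995 to 1.02), an interval that holds equality. As deposited the libraries lay further apart, at 837 FPKM in WT_ES and 555 in DKO_ES, against 287 in WT_NP and 406 in DKO_NP, and the log2 ratio of DKO_NP against DKO_ES was -0.45. Shares were taken of the summed FPKM of Eno1, Eno2 and Eno3. Eno1 made up 96.5% in WT_ES and 93.5% in DKO_ES, against 85.0% in WT_NP and 90.8% in DKO_NP. That sum leaves out Gm5506, a near-identical retrocopy of Eno1 described below, though it was listed above Eno3 in every library. Most of the rest of the sum was Eno3, the muscle enolase, at 19.5, 28.2, 65.9 and 42.4 scaled FPKM in WT_ES, DKO_ES, WT_NP and DKO_NP. Eno3 was higher in WT_NP than in WT_ES by 3.38-fold (3.10 to 3.70) and 1.5-fold higher in DKO_NP than in DKO_ES (1.38 to 1.63). Eno2, the neuronal enolase, was higher in WT_NP than in WT_ES by 2.94-fold (2.57 to 3.37) but only at 9.52 scaled FPKM, and it was at 2.75 in DKO_NP.

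Ldha encodes the M subunit of lactate dehydrogenase, which favours lactate. It stood at 946 scaled FPKM in WT_ES and 765 in DKO_ES, against 825 in WT_NP and 653 in DKO_NP. Each knockout library was below its wild-type counterpart, by 1.24-fold in ES cells (1.22 to 1.25) and 1.26-fold in NPCs (1.25 to 1.28), though in NPCs the deposited values had the other direction, at a log2 ratio of 0.10. Ldhb, the H subunit, differed more than Ldha: it was 2.21-fold lower in WT_NP than in WT_ES (2.12 to 2.31) and 1.69-fold lower in DKO_NP than in DKO_ES (1.63 to 1.75). The ratio of Ldha to Ldhb was 4.51 in WT_ES (4.39 to 4.63) and 3.08 in DKO_ES (3.0 to 3.15), against 8.70 in WT_NP (8.41 to 9.0) and 4.42 in DKO_NP (4.30 to 4.55). The wild-type library had the higher ratio in both cell types, and the NPC library the higher ratio in both genotypes.

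Copies of the enzyme genes elsewhere in the genome bear on how precisely their levels are known. By sequence match to GENCODE M21 transcripts (at least 90% identity over at least 200 bases), Gapdh had 180 copies, of which 171 were annotated as pseudogenes, Ldha had 13, Eno1 7, Aldoa 6, Pgk1 4 and Tpi1 2. Slc2a1, Slc2a3, Hk2 and Pfkp had 0. Of the 212 copies, 12 had a row in the table, and how reads that map to several places were assigned is not given in the sources used here. These counts are of genes with such a match, and those with a row include the protein-coding genes Peli2 and Vmn2r60. The levels of these genes need not be those of a Gapdh copy. The copy with the highest share was Gm5506, a near-identical retrocopy of Eno1, listed at 291, 198, 97.1 and 143 FPKM as deposited in WT_ES, DKO_ES, WT_NP and DKO_NP. These were 34.7%, 35.6%, 33.8% and 35.3% of Eno1, a nearly fixed share, and how reads matching both were divided is not known, so the level of Eno1 is uncertain. Summed with Gm5506, Eno1 gave nearly the same log2 ratios in all comparisons, which a nearly fixed share requires. The sum therefore does not bear on how the shared reads were divided. For Gapdh, the pseudogene Gm12070 was listed at 0.712%, 1.40%, 0.709% and 0.709% of Gapdh.

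Counted against all genes, few members passed 2-fold. In WT_NP against WT_ES, 0 members were at least 2-fold higher, where 16.2% of 14086 genes were, and 1 (Pfkp) was at least 2-fold lower, where 11.3% were. In DKO_NP against DKO_ES, 0 were higher, where 11.8% of 14050 genes were, and 2 (Hk2 and Pfkp) were lower, where 11.2% were. In DKO_ES against WT_ES, 0 were higher and 0 lower, where 2.56% and 1.15% of 13596 genes were. In DKO_NP against WT_NP, 0 were higher and 0 lower, where 4.76% and 7.99% of 13601 genes were. The members' counts are near or below these background shares.

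The median log2 ratio of the members was -0.29 in WT_NP against WT_ES, -0.31 in DKO_NP against DKO_ES, -0.12 in DKO_ES against WT_ES and -0.41 in DKO_NP against WT_NP, beside medians over all genes of 0.01, -0.03, 0.01 and 0.01. In the last comparison 8 of the 10 members were below 0, all but Slc2a1 and Eno1, against 3 as deposited and 0 with each library rescaled to a common sum, where the median of all genes lay at 1.03. That rescaling also turned Aldoa, Tpi1, Gapdh, Pgk1 and Ldha in DKO_NP against DKO_ES and Slc2a1, Hk2 and Pfkp in DKO_ES against WT_ES. Scaling decides how many genes count as higher or lower. Of all genes at least 2-fold different, 59.0% were the higher in WT_NP against WT_ES after scaling and 13.3% as deposited; the figures were 51.3% and 26.4% in DKO_NP against DKO_ES, and 37.3% and 72.2% in DKO_NP against WT_NP. As deposited, 7 members were at least 2-fold lower in WT_NP than in WT_ES, where 41.7% of all genes were, and 4 in DKO_NP than in DKO_ES, where 21.8% were. The deposited values put 0 members at least 2-fold higher in these comparisons, where 6.4% and 7.84% of genes were. Between genotypes as deposited, 0 were past 2-fold in ES cells, where 2.62% of genes were higher and 1.52% lower, and 0 in NPCs, where 10.2% were higher and 3.9% lower. Pfkp was the lowest member in both NPC against ES comparisons under either scaling.

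**Figure D3:**
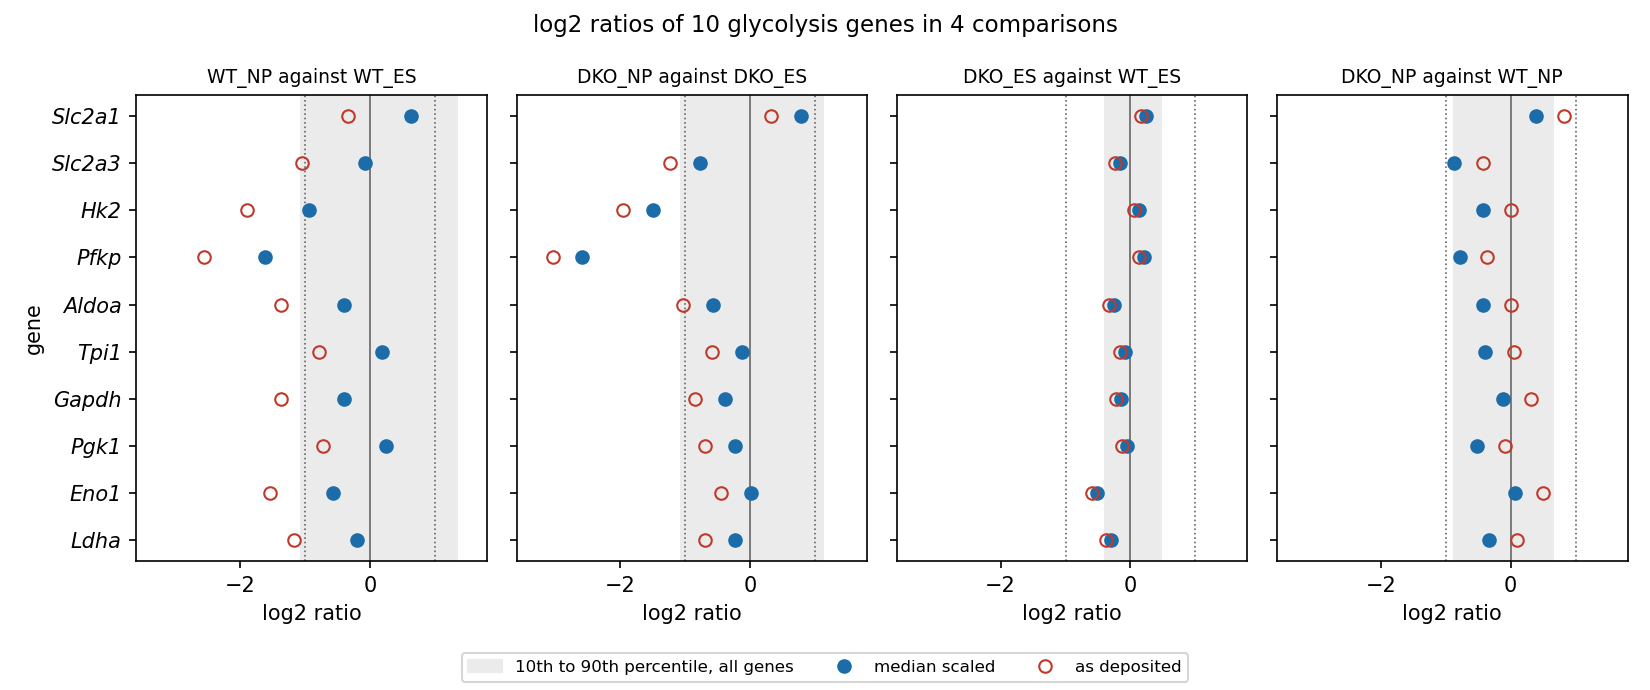
Log2 ratio of each gene in 4 comparisons, 1 panel each; filled points are median-scaled values, open points deposited values, the grey band spans the 10th to 90th percentile of all genes and dotted lines mark 2-fold. Scaled Pfkp lies at -1.61 and -2.60 in the NPC against ES panels, below the band; in the DKO_NP against WT_NP panel Hk2, Aldoa, Tpi1, Gapdh and Ldha lie below 0 when scaled and at or above 0 as deposited.

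The knockout and wild-type differentiation ratios were compared gene by gene as a difference of log2 ratios, DKO minus WT, which shares no library between its arms. No member reached 1 in size (0 higher and 0 lower, where 4.31% and 8.81% of 14713 genes did). Pfkp came nearest at -0.99, followed by Slc2a3 at -0.70, Eno1 at 0.58, Hk2 at -0.56 and Pgk1 at -0.47. Gapdh and Ldha were near 0, at 0.02 and -0.03. Over all genes, 32.8% of those past 2-fold were the higher after scaling and 71.0% as deposited, so the level from which these differences are read depends on the scaling. As deposited 1 member, Eno1, was past 2-fold, on the higher side, where 11.8% of genes were, and 0 on the lower side, where 4.82% were.

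Cell type markers also differed between the cultures. Summed over 8 pluripotency markers the level was 5787 scaled FPKM in WT_ES and 6668 in DKO_ES, against 141 in WT_NP and 451 in DKO_NP, and 8 of 8 were at or above 1 FPKM in every library. The 10 neural progenitor markers summed to 215, 218, 158 and 333 in the same order, with 5, 6, 9 and 10 of them at or above 1 FPKM. Sox2, which is also a pluripotency marker, made up 192 and 190.1 of the ES sums, and the 9 other neural markers summed to 22.9 in WT_ES and 28.3 in DKO_ES, against 139 in WT_NP and 271 in DKO_NP. Summed over each list, markers of other lineages were highest in WT_NP, though not every single marker was. The 8 primitive red blood cell markers summed to 1159 scaled FPKM in WT_NP and 84.7 in DKO_NP, against 4.10 in WT_ES and 4.16 in DKO_ES, where Hbb-y and Hba-x were listed at 0. The 9 endoderm markers summed to 5.30, 1.94, 193 and 33.4, the 8 mesoderm markers to 2.76, 2.73, 96.8 and 12.0, and the 12 fibroblast markers to 279, 187, 414 and 324 in WT_ES, DKO_ES, WT_NP and DKO_NP. In WT_NP the red blood cell and endoderm sums were above that of the 10 neural markers. NPC is thus the label of a culture here and does not name a pure cell type. The part of these markers' cells in the glycolytic values was not tested, and in such bulk samples fewer cells of a type cannot be told apart from less RNA per cell.

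The rest of the pathway was read from lists. Of 20 other glycolytic enzyme genes, 18 were at or above 1 FPKM in WT_NP or WT_ES, of which 4 were at least 2-fold higher and 2 lower in WT_NP, with a median log2 ratio of -0.15, beside 16.2% and 11.3% of all genes. In the knockout 2 of 15 were higher and 4 lower, with a median of -0.09, beside 11.8% and 11.2% of all genes. As deposited the balance was on the lower side, with 1 higher and 8 lower in wild type (median -0.96) and 1 higher and 5 lower in the knockout (median -0.55). Pkm (listed as Pkm2), pyruvate kinase, stood at 1589, 1443, 1150.2 and 1029 scaled FPKM in WT_ES, DKO_ES, WT_NP and DKO_NP, and was 1.38-fold lower in WT_NP than in WT_ES (1.37 to 1.39) and 1.40-fold lower in DKO_NP than in DKO_ES (1.39 to 1.41). Among 6 regulators of the pathway 0 were at least 2-fold higher and 2 lower in NPCs in either genotype, scaled or as deposited. Beside them, 16.2% of all genes were higher and 11.3% lower in wild type after scaling, and 11.8% and 11.2% in the knockout. The shares as deposited are those given above. After scaling, 3 of the 6 regulators were above 0 and 3 below in either genotype. Txnip, which drives internalisation of GLUT1 and is induced by glucose, stood at 322, 374, 80.5 and 96.4 scaled FPKM, 4.00-fold lower in WT_NP (3.88 to 4.12) and 3.88-fold lower in DKO_NP (3.78 to 3.99) than in the respective ES cells. Tigar (listed as 9630033F20Rik), a phosphatase that lowers flux through phosphofructokinase, was 3.40-fold (3.03 to 3.82) and 2.48-fold (2.24 to 2.75) lower. Pfkfb3, of the same list, stood at 6.40, 6.42, 13.1 and 7.11 scaled FPKM in WT_ES, DKO_ES, WT_NP and DKO_NP. As deposited it was at 8.44, 8.03, 8.80 and 6.46 FPKM.

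Genes for the fate of pyruvate and lactate differed from Ldha. Slc16a3, the MCT4 carrier that exports lactate, stood at 53.5 scaled FPKM in WT_ES and 66.5 in DKO_ES, against 128 in WT_NP and 67.8 in DKO_NP. After scaling WT_NP alone was high, at 2.40 times WT_ES (2.32 to 2.47), and Slc16a3 was 1.89-fold lower in DKO_NP than in WT_NP (1.84 to 1.94). As deposited WT_NP did not stand apart, with Slc16a3 at 70.6, 83.2, 86.0 and 61.5 FPKM in the same order, and the ratio of Slc16a3 to Slc16a1, a second lactate carrier, was 1.05, 1.17, 1.24 and 0.847. Pdk1, a kinase that shuts pyruvate out of the mitochondrial route, stood at 51.1, 46.9, 28.8 and 21.5 scaled FPKM, and was 1.77-fold lower in WT_NP than in WT_ES (1.71 to 1.84) and 2.18-fold lower in DKO_NP than in DKO_ES (2.10 to 2.27). Mpc1 (listed as Brp44l), a subunit of the mitochondrial pyruvate carrier, was 2.40-fold lower in WT_NP than in WT_ES (2.12 to 2.72) and 2.20-fold higher in DKO_NP than in WT_NP (1.94 to 2.49). Of the 17 genes of this list, 2 of 16 were at least 2-fold higher and 2 lower in WT_NP against WT_ES, and 0 of 15 higher and 1 lower in DKO_NP against DKO_ES. As deposited they were 0 higher and 9 lower in wild type, and 0 higher and 4 lower in the knockout; the shares of all genes are those given above for each comparison.

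Among known hypoxia-induced genes outside glycolysis, 4 of 17 were at least 2-fold higher and 0 lower in WT_NP against WT_ES, with a median log2 ratio of 0.37 after scaling, beside 16.2% and 11.3% of all genes. In DKO_NP against DKO_ES 1 of 17 was higher and 0 lower, with a median of 0.11, beside 11.8% and 11.2% of all genes. As deposited the direction turned, with 0 higher and 4 lower in wild type (median -0.31) and 1 higher and 1 lower in the knockout (median -0.24). Vegfa, the angiogenic growth factor, stood at 17.2 scaled FPKM in WT_ES and 17.3 in DKO_ES, against 62.0 in WT_NP and 30.1 in DKO_NP, which was higher in WT_NP than in WT_ES by 3.60-fold (3.40 to 3.82) and 2.06-fold lower in DKO_NP than in WT_NP (1.97 to 2.15). P4ha1, a collagen prolyl hydroxylase, was higher in WT_NP than in WT_ES by 3.64-fold (3.42 to 3.88) and 1.6-fold higher in DKO_NP than in DKO_ES (1.5 to 1.70). Hif1a, the oxygen-regulated factor itself, was at 35.4, 42.9, 36.8 and 48.9 scaled FPKM in WT_ES, DKO_ES, WT_NP and DKO_NP.

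**Figure D4:**
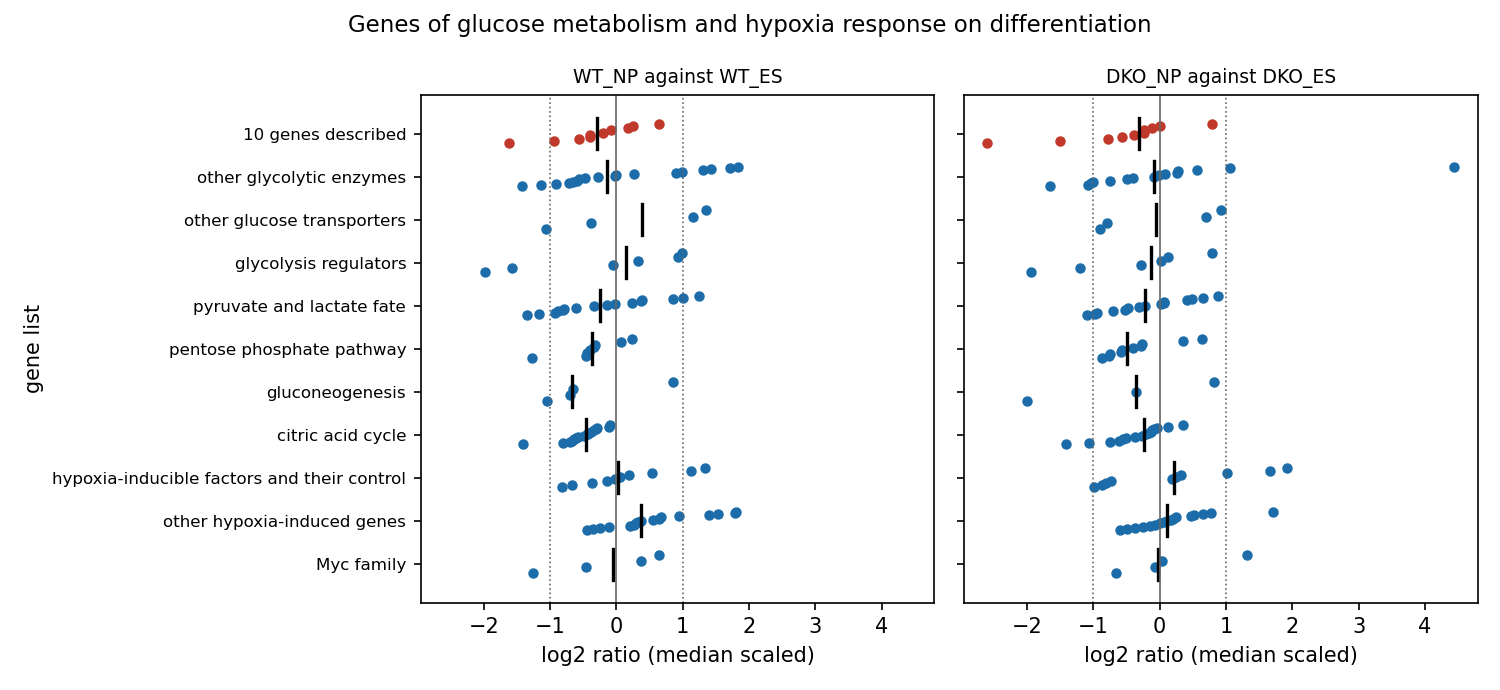
Log2 ratio (median scaled) of each gene at or above 1 FPKM in each list, 1 point per gene with a vertical bar at the list median and dotted lines at 2-fold, 1 panel per comparison on a shared axis. The 10 members have medians of -0.29 and -0.31 in the NPC against ES panels, and the other hypoxia-induced genes 0.37 and 0.11, which are -0.31 and -0.24 as deposited.

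Genes whose pattern over the 4 libraries was most like that of the members were found by the Euclidean distance between centred log2 profiles, among 9001 genes that reached 10 FPKM in some library. Nearest to the median profile of the members was Kif23, a kinesin of cell division, at a distance of 0.0462, followed by Pigo, Rassf7, Dcaf17, Recql5 and Hemk1, the last at 0.0726. Nearest to Hk2 were Ucp2, a mitochondrial carrier protein, at 0.0664, Itga6, an integrin subunit, at 0.0704 and Kdm4c, a histone demethylase, at 0.0723. Nearest to Ldha were Mfsd10 at 0.0312, Vars2 at 0.0455 and Dhx38 at 0.0563. With 4 libraries many genes share a profile, and none of these 12 genes is in the lists of glucose metabolism used here.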

How the data were processed

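RNA of 4 libraries, 1 per group, was used. Alignment used TopHat, Bowtie and the build mm9, per the submitters' processing notes. Their versions, the program that computed FPKM, its annotation and its use of reads mapping to several places were not given in the sources used here. The authors deposited FPKM for 23235 gene symbols; 18 blank rows were left out and 0 value columns were unmapped. The 10 members and all lists were chosen with earlier results of these data known. Of 183 listed genes, 5 were found under older symbols.

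Ratios were log2((scaled FPKM + 1)/(scaled FPKM + 1)), counted at a size of 1 or more for genes that reached 1 FPKM in a library of the pair; this scale understates differences of low genes. Scaling factors were 1.32 (WT_ES), 1.25 (DKO_ES), 0.671 (WT_NP) and 0.908 (DKO_NP). No test was run with 1 library per group. Approximate reads came from the steps of low values and GENCODE M21 lengths (20851 symbols, 89.7%). They are rough: 41.1% to 44.9% of low values tried were whole within 0.1 read. Reads over coding genes (35.4 to 42.3 M) exceeded the fitted read number of each library, so intervals may be too narrow. PCR copies are not independent molecules. A count of 3 reads in a 2 kb gene is 0.0415 to 0.109 FPKM. Copies were found with blastn 2.17.0; other steps used Python 3.11.15, pandas 2.3.3, numpy 2.4.6, scipy 1.17.1 and matplotlib 3.10.9, and were tested on simulated data. Besides the members, genes were named by rule: up to 3 per list at or above 5 FPKM with the largest log2 ratio, isozymes of the members' steps, copies, the targeted genes and the nearest profiles. Pitrm1, Pkm and Hif1a were named for their overlap or role after values were seen. Alternatives were no scaling, upper quartile scaling, rescaling to a common sum, pseudocounts of 0.1 and 5, no filter and a filter at 5 FPKM.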

Additional observations from a re-analysis of the deposited data

Results flagged for a closer look

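Several members had opposite directions in the paired contrasts, and none of these differences was tested, since each arm is 1 library against 1. Between genotypes, Hk2 had a log2 ratio of 0.13 in ES cells and -0.43 in NPCs, a difference of -0.56. Pfkp had 0.20 in ES cells and -0.78 in NPCs, a difference of -0.99. Eno1 had -0.52 in ES cells and 0.06 in NPCs, a difference of 0.58.

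Between NPCs and ES cells, Tpi1 had a log2 ratio of 0.18 in wild type and -0.12 in the knockout, a difference of -0.30. Pgk1 had 0.24 in wild type and -0.23 in the knockout, a difference of -0.47. Eno1 had -0.57 in wild type and 0.01 in the knockout, a difference of 0.58. All of these are median-scaled values, and several of the opposite signs depend on that scaling. As deposited, Hk2 between genotypes had 0.06 in ES cells and 0.00 in NPCs, and between NPCs and ES cells both genotypes were below 0 for Tpi1 (-0.79 and -0.58), Pgk1 (-0.73 and -0.69) and Eno1 (-1.54 and -0.45). The opposite signs between genotypes were also present as deposited for Pfkp (0.13 and -0.36) and Eno1 (-0.59 and 0.50).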

How the results depend on the processing

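The number of members at least 2-fold different moved with the scaling. As deposited it was 7 in WT_NP against WT_ES (all lower), 4 in DKO_NP against DKO_ES (all lower) and 1 for the difference of differentiation ratios (higher). With each library rescaled to a common sum it was 6 in WT_NP against WT_ES (all lower), 3 in DKO_NP against WT_NP (all higher) and 6 for the difference (all higher). With upper quartile scaling, and with a pseudocount of 0.1, it was 1 for the difference (lower in both cases). Rescaling to a common sum put 8 of 10 members on the other side of 0 in DKO_NP against WT_NP, where the median of all genes lay at 1.03. Of the 50 member ratios, 50 moved beyond counting error as deposited, 50 with a common sum and 35 with the upper quartile. With a pseudocount of 5 it was 6, with 0.1 it was 1, and with either other filter 0. By construction, a change of scaling shifts all ratios of a comparison by nearly the same amount. A filter leaves the ratio of a gene unchanged, so its 0 was fixed in advance. Eno1 summed with Gm5506, chosen after seeing the data, kept 5 of 5 ratios nearly the same, which the nearly fixed share of Gm5506 requires. Ratios and shares within a library do not depend on scaling. No paired analysis was possible because each group has 1 library, and leaving out a replicate was not possible for the same reason. These data cannot give the spread between cultures.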

Other observations

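Genes that draw on glycolytic intermediates or burn pyruvate differed in their own ways. Of 16 citric acid cycle genes, 16 had scaled log2 ratios below 0 in WT_NP against WT_ES, with a median of -0.46, and 1 was at least 2-fold lower: Idh3a, a subunit of isocitrate dehydrogenase, at -1.40. In DKO_NP against DKO_ES 14 of 16 were below 0, with a median of -0.24, and 2 were at least 2-fold lower, among them Ogdh, of the oxoglutarate dehydrogenase complex, at -1.41. Of all genes, 11.3% and 11.2% were at least 2-fold lower in these comparisons. As deposited 16 of 16 were at least 2-fold lower in wild type, where 41.7% of all genes were, and 5 of 16 in the knockout, where 21.8% were. In DKO_NP against WT_NP 14 of 16 were above 0, with a median of 0.26, while 8 of the 10 glycolytic members were below 0. As deposited 16 of 16 citric acid cycle genes and 7 of the 10 members were above 0, where the median of all genes lay at 0.39. With each library rescaled to a common sum, 10 of the 10 members were above 0. The side of 0 on which each list lay therefore depended on the scaling, but their order did not change between scaled and deposited values. The citric acid cycle median was above that of the members, at 0.26 against -0.41 scaled and 0.69 against 0.03 as deposited. Mdh2, mitochondrial malate dehydrogenase, had the largest scaled ratio in DKO_NP against WT_NP among the named citric acid cycle genes, at 0.83. In the pentose phosphate pathway, Taldo1, transaldolase, was 2.45-fold lower in WT_NP than in WT_ES (2.35 to 2.55) and 1.51-fold lower in DKO_NP than in DKO_ES (1.45 to 1.56). Tktl2, a transketolase-like gene, stood at 0.131 scaled FPKM in WT_ES and 4.17 in DKO_ES, against 0.0786 in WT_NP and 2.04 in DKO_NP. Both knockout libraries were above both wild-type libraries.

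Pck2, the mitochondrial phosphoenolpyruvate carboxykinase, was 2.20-fold lower in WT_NP than in WT_ES (2.06 to 2.36) and 4.73-fold lower in DKO_NP than in DKO_ES (4.35 to 5.15). In the control of hypoxia-inducible factors, Egln1, the oxygen-sensing prolyl hydroxylase, was 2.63-fold higher in WT_NP (2.45 to 2.82) and 3.47-fold higher in DKO_NP (3.14 to 3.83) than in the respective ES cells, and 2.03-fold lower in DKO_ES than in WT_ES (1.82 to 2.26). As deposited Egln1 differed less, at 26.6 FPKM in WT_NP against 19.9 in WT_ES, and 23.5 in DKO_NP against 9.33 in DKO_ES. Arnt2, a partner of these factors prominent in neural tissue, was 2.66-fold higher in WT_NP (2.36 to 3.0) and 4.94-fold higher in DKO_NP (4.4 to 5.56). As deposited Arnt2 was 4.46 FPKM in WT_NP against 3.30 in WT_ES, and 10.6 in DKO_NP against 2.96 in DKO_ES. Of the 10 genes of this list, 2 were at least 2-fold higher and 0 lower in wild-type NPCs, but 0 higher and 3 lower as deposited. In the knockout 3 were higher and 0 lower, but 2 higher and 4 lower as deposited. The shares of all genes are those given above for each comparison. Of the Myc family, Mycn, abundant in embryonic cells, stood at 111 scaled FPKM in WT_ES and 96.4 in DKO_ES, against 46.3 in WT_NP and 60.5 in DKO_NP. Both NPC libraries were below both ES libraries. Mycl (listed as Mycl1) went the other way, at 7.83, 9.99, 12.8 and 26.3 scaled FPKM in WT_ES, DKO_ES, WT_NP and DKO_NP. As deposited it was at 10.3, 12.5, 8.56 and 23.9 FPKM. After scaling, 2 of the 4 Myc family genes were above 0 and 2 below in NPCs against ES cells in either genotype.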
